A study of Melianthus elongatus with 11 samples.

Results

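The 94 contigs described here, of 68651 in the deposited table, had high normalised read counts in the libraries of codes 1 and 2 and low ones in codes 0 and L. A contig was taken when its value was at least 100 in all 6 libraries of codes 1 and 2 and the mean of code 0 and the mean of code L were each at most 1/8 of the mean of those 6. The members were thus chosen by their values in all 11 libraries, so the difference between codes 1 and 2 and the other libraries is given as a description, without a test. Of the 94 contigs, 92 had a closest Arabidopsis locus, from 79 loci, and 2 had none. Contigs are called by the description of that locus.

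The study sampled leaves and nectaries, the glands that secrete nectar, of Melianthus minor (filed as Melianthus elongatus), a shrub with black nectar grown outdoors in an arboretum. The 11 libraries carried the codes 0 (0-A, 0-B), 1 (1-A, 1-B, 1-C), 2 (2-A, 2-B, 2-C) and L (L-A, L-B, L-C). No genotype, agent or plant age separated them, and the sources used here do not give the meaning of a code. As filed, 0-A, 0-B and 1-A are mature leaf, 1-B with 1-C is nectary before secretion, code 2 is secreting nectary (with 2-A titled presecretory) and code L is nectary after secretion. These labels cross the codes, and codes are used throughout. The labels name no plant for any library, so the p-values below rest on the spread between libraries, which may be technical.

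As background, nectaries of many flowers make nectar by breaking down stored starch or imported sucrose, rebuilding sucrose in the cell and releasing it through SWEET uniporters in the plasma membrane. A cell wall invertase can then split the sucrose, which draws out more sugar and water. Proton pumps of the plasma membrane supply the gradient for other transport, and jasmonate with the MYB21 and MYB24 factors acts in late flower development in Arabidopsis. Nectar also carries secreted proteins, many of them related to defence, and amino acids. The submitters' title likens the black pigment of this nectar to iron-gall ink, a complex of iron with gallic acid derivatives.

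Column totals of the 11 libraries ran from 631454 to 1168300, and the depth in reads is unknown. Whether the values are scaled for contig length is not given either. Contigs were ordered by level to choose those named and to order figure rows, and this order is not read as a result. Libraries stood apart in several ways that touch these contigs. Pearson's r of log2 values across 26053 contigs was 0.930 to 0.967 between libraries of code 1 but 0.767 to 0.878 between those of code 2. The summed value of 237 contigs of leaf photosynthesis genes was 59818 to 102716 in code L, filed as postsecretory nectary, and 3425 to 6337 in the other libraries, including the 3 filed as leaf. The other marker lists had lower sums. Sums of the 19 pollen and tapetum contigs ran from 105 up to 260 in code 1, from 58.4 up to 125 in code 2, from 119 up to 145 in code 0 and from 25.7 up to 46.4 in code L. The 35 vascular contigs summed to 116 to 231 over all libraries. For the 29 contigs of epidermis and stomata, every library of code L lay above all the others. The lowest sum there was 370 (L-A) and the highest 414 (L-C). Libraries of the remaining codes reached at most 229 (0-B) and fell as low as 75.2 (2-C). None of the 94 contigs belonged to these marker lists, and the part of other tissue in their values was not tested.

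The median of the 94 contigs was 350 in 1-A, 337 in 1-B, 402 in 1-C, 554 in 2-A, 338 in 2-B and 313 in 2-C. It was 7.08 in 0-A, 6.73 in 0-B, 12.6 in L-A, 3.22 in L-B and 5.72 in L-C. Together the contigs held 4.80% to 6.36% of the column total in codes 1 and 2 and 0.144% to 0.384% in the other libraries. The lowest of the 6 libraries stood above the highest of the other 5 for each of the 94, a separation that the rule nearly fixes. The ratio of the mean of codes 1 and 2 to the higher of the other means had a median of 25.4 and ran from 8.14 to 248, leaving out 2 contigs listed at 0 in all 5 other libraries. Of the 94, 13 were listed at 0 in 1 or more of the libraries of codes 0 and L, and whether low values there stand for transcripts cannot be told at an unknown depth. In tissue samples such as these, fewer cells with a transcript and less of it per cell cannot be told apart.

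**Figure D1:**
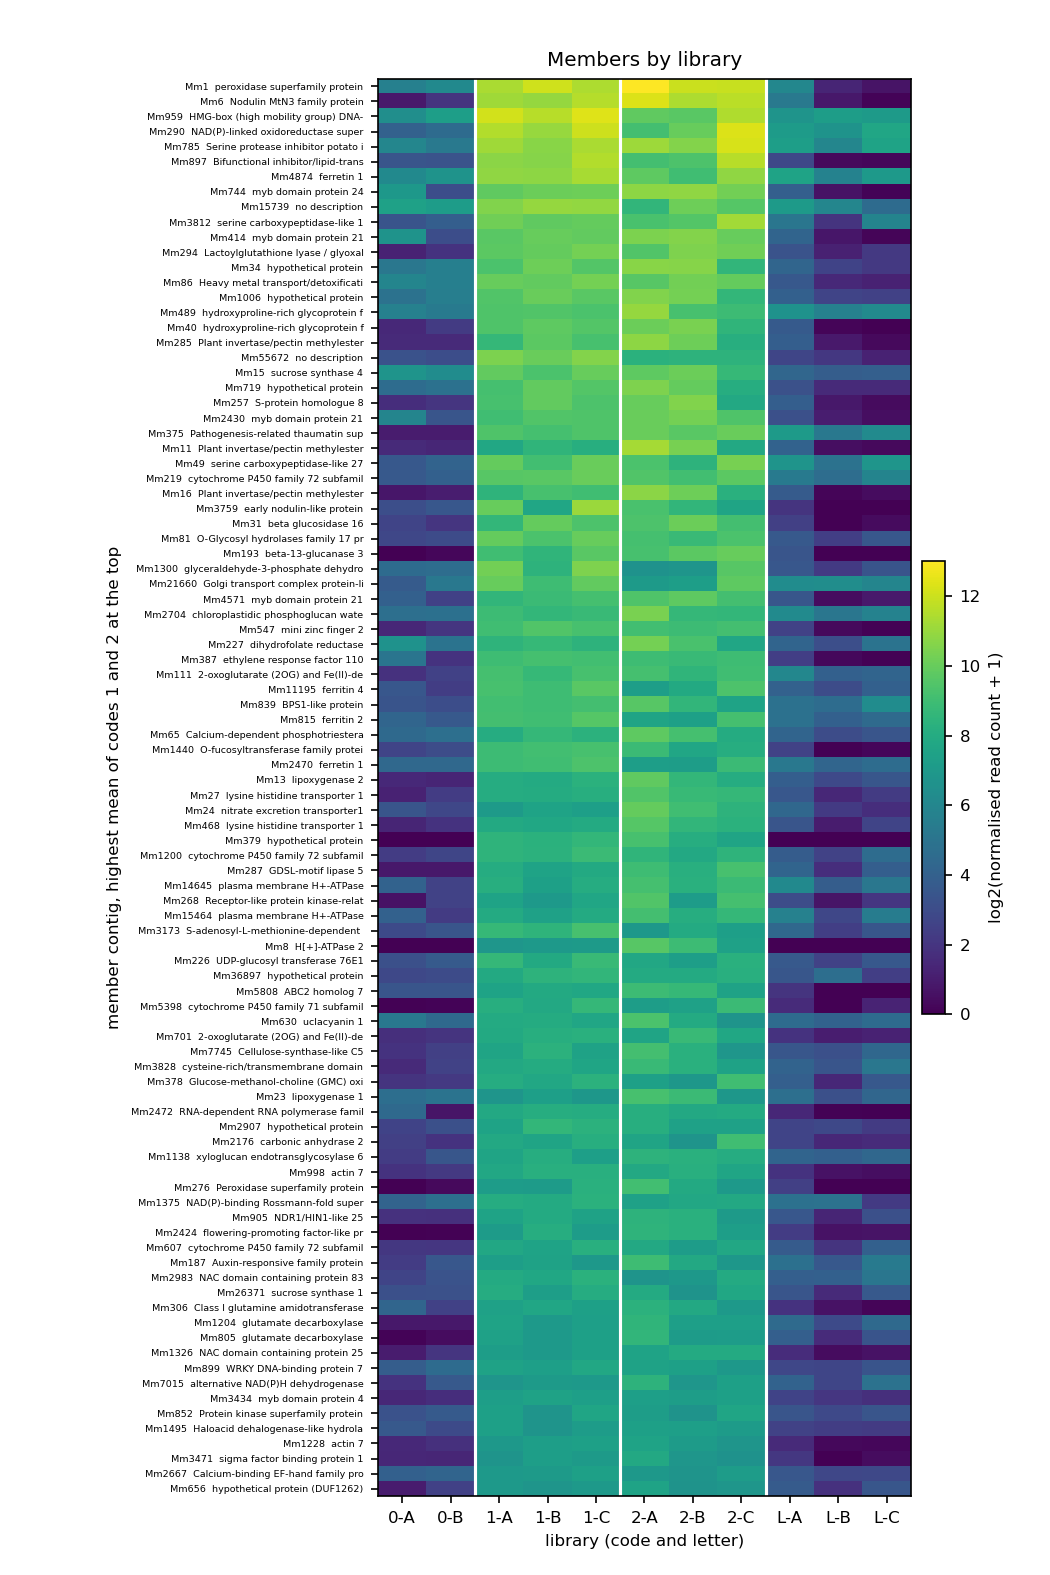
Each row is 1 of the 94 contigs and each column 1 of the 11 libraries, and colour gives log2(normalised read count + 1), with white lines between codes 0, 1, 2 and L. The 6 middle columns are bright in every row, with a median of 313 to 554 by library, and L-A is the highest of the code L columns in 71 rows.

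The rule passed 94 of the 882 contigs that reached 100 in all 6 libraries (10.7%). Of the 882, 110 were low in code 0, 232 were low in code L and 634 in neither. At the floor, the contigs just inside were like glyceraldehyde-3-phosphate dehydrogenase C2 (Mm1300, AT1G13440) and sigma factor binding protein 1 (Mm3471, AT3G56710), with lowest values of 100.014 and 100.215. Those just outside were like lipoxygenase 2 (Mm51, 97.3) and ethylene response factor 110 (Mm1399, 97.2). At the limit set by code 0, the ratio of means was 8.17 for Mm15739, which has no locus, and 8.37 for a dihydrofolate reductase contig (Mm227). It was 7.61 for a methyltransferase contig just outside (Mm1260) and 6.85 for the next, like a granulin repeat protease (Mm114). At the limit set by code L, it was 8.14 for a Golgi transport complex contig (Mm21660) and 8.47 for an auxin-responsive contig (Mm187), and just outside 7.45 for both a COR47-like contig (Mm81280) and a proton pump contig (Mm14163).

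Sugar export and sucrose metabolism gave 3 members, and values below are in letter order within a code. The contig of the SWEET9 locus, a sucrose exporter required for nectar secretion in Arabidopsis, was at 2303, 1969 and 3049 in code 1 and 5216, 2725 and 3321 in code 2 (Mm6, AT2G39060, described as a nodulin MtN3 family protein). It was at 0.840 and 2.86 in code 0 and 36.8, 0.806 and 0.105 in code L. Every library of codes 1 and 2 was thus far above the rest, and L-A held most of what was listed in code L. A contig like sucrose synthase 4, which splits or makes sucrose with UDP-glucose, was at 945, 636 and 1036 in code 1 and 886, 1098 and 426 in code 2 (Mm15, AT3G43190). Its other values were 104 and 78.5 in code 0 and 18.9, 13.6 and 14.4 in code L, so code 0 stood between code L and the 6 high libraries. A contig like sucrose synthase 1 was at 101 to 268 in codes 1 and 2 and at most 11.3 elsewhere (Mm26371, AT5G20830). In starch breakdown, a contig like phosphoglucan water dikinase, which tags starch for degradation, was at 488, 394 and 446 in code 1 and 1350.5, 412 and 395 in code 2 (Mm2704, AT5G26570). It was at 25.6 and 26.5 in code 0 and 72.9, 33.9 and 53.5 in code L, and 2-A was the high library.

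The list of sugar transport and sucrose metabolism had 81 contigs kept for testing (10 or more in 2 or more libraries), and 9 of them reached 100 in all 6 libraries. All 9 were low in code L, and the 6 that were not members missed the limit in code 0. They were 4 further contigs of the sucrose synthases 1 and 4 and a pair of the SWEET17 locus, a vacuolar fructose transporter. The SUS4-like contig Mm7 averaged 332 in code 0, 1632 in code 1, 2059 in code 2 and 20.1 in code L, and the SUS1-like contig Mm120 averaged 263, 1794, 1468 and 51.4. In starch breakdown, 2 of 33 contigs reached the floor, and the BAM1-like amylase contig Mm17 was no member, with means of 96.0 in code 0 and 99.7 in code L against 449 and 890.3 in codes 1 and 2.

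Plasma membrane proton pumps and carriers of nitrogen compounds were a second group. A contig like the proton pump AHA2 was at 113, 130.2 and 138 in code 1 and 809, 479 and 172 in code 2 and listed at 0 in the other 5 libraries (Mm8, AT4G30190, H[+]-ATPase 2). A pair of contigs like the pump AHA5 ran from 171 to 572 (Mm14645) and 172 to 563 (Mm15464) in codes 1 and 2 (both AT2G24520). In code L the second was at 52.4, 5.84 and 42.6, and L-B was the lowest for both. A pair like lysine histidine transporter 1, which imports amino acids, moved alike: Mm27 was at 268, 253 and 283 in code 1 and 728, 439.8 and 408 in code 2, and Mm468 ran from 218 to 780.2 (both AT5G40780). A contig like the nitrate excretion transporter NAXT1, which releases nitrate from root cells in Arabidopsis, was at 138, 184 and 159.8 in code 1 and 989, 514 and 337 in code 2 (Mm24, AT3G45650). For all 6 of these transport contigs 2-A was the highest library. The list of proton pumps, aquaporins and secretion SNAREs had 113 kept contigs, of which 14 reached the floor and 3 were members. The other 11 were 6 aquaporin contigs, above the limit in code 0, and 5 further pump contigs. Of these pumps, Mm14163 and the AHA8-like Mm24846 missed the limit only in code L. Mm24846 was low in code 0 (16.1) but not in code L (49.5, against 277 and 457 in codes 1 and 2).

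The locus with the most members, 4, was AT1G66200, listed as a hypothetical protein. The same description is given to AT5G37600, the GLN1;1 locus, so it does not show that a function is unknown. Mm34 was at 644, 1151 and 738 in code 1 and 1672, 1640.1 and 376 in code 2 and Mm1006 at 728, 1045 and 830.2 in code 1 and 1498, 1250.1 and 389.9 in code 2. In Mm719 the 6 values ran from 275 to 1444 and in Mm379 from 197 to 601, the latter listed at 0 in the other 5 libraries. In all 4 contigs 2-A was the highest and 2-C the lowest library of code 2. A pair of contigs like glutamate decarboxylase, which makes GABA from glutamate, was at 132 to 371 (Mm1204) and 126 to 384 (Mm805, both AT5G17330). Their values in code 0 were 0.772 and 0.793 and 0.0910 and 0.342, and those in code L were 21.5, 6.59 and 21.2 and 14.2, 2.00 and 9.48. All 3 libraries of code L stood above code 0 for both.

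**Figure D2:**
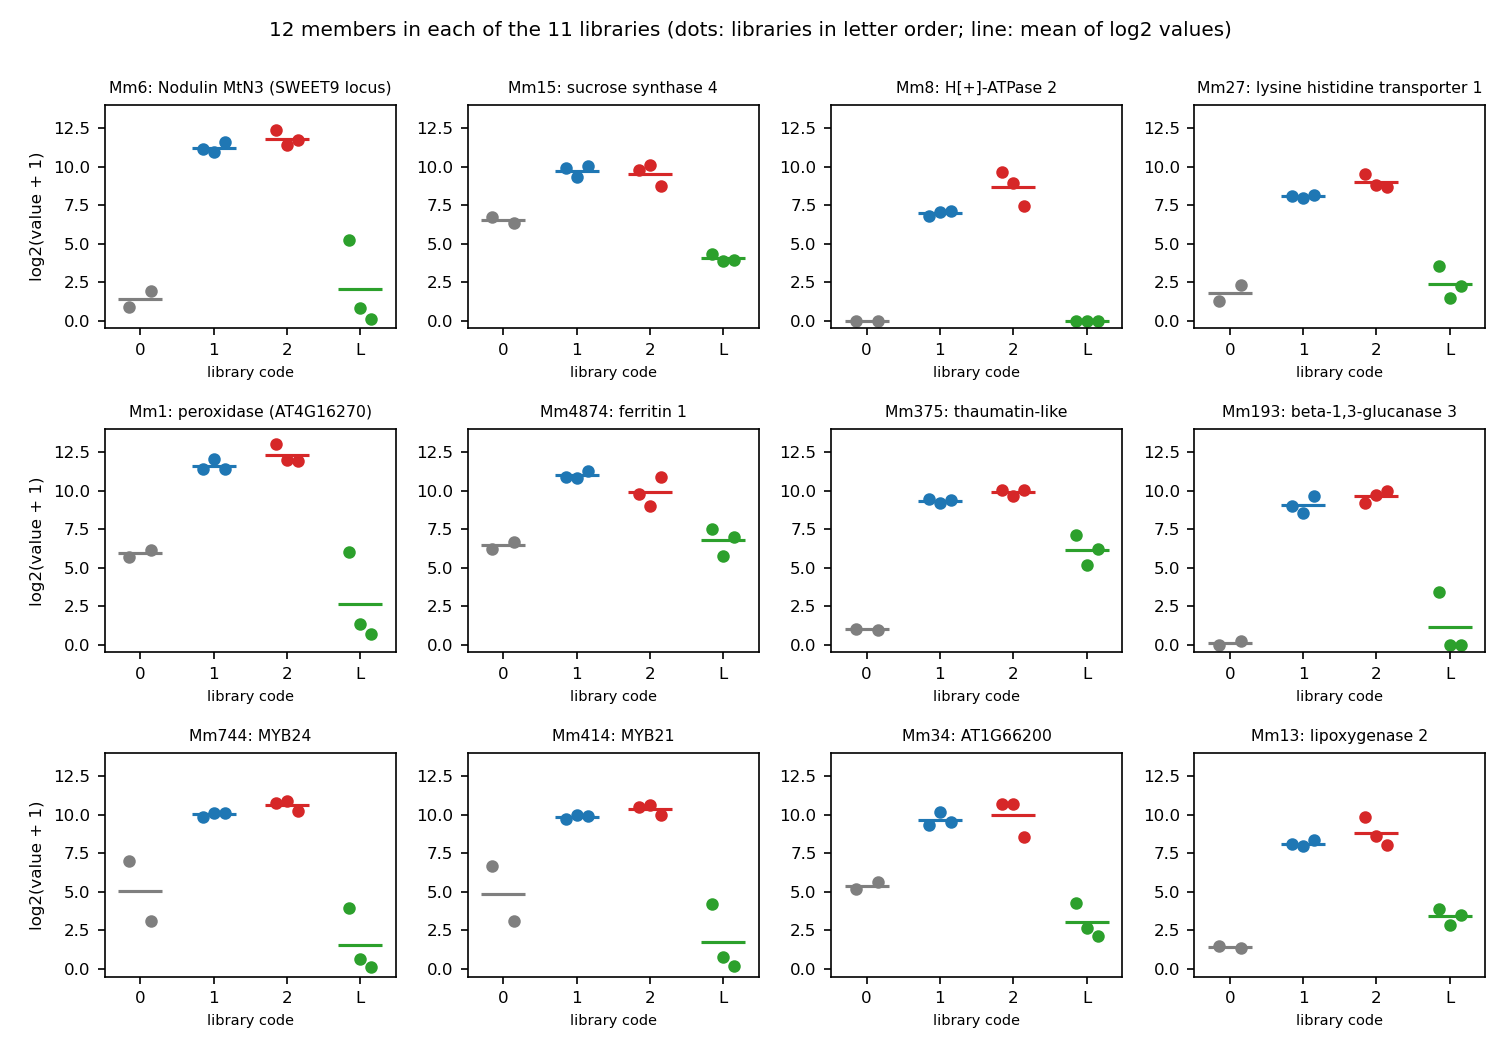
Each panel shows 1 of 12 contigs, with log2(normalised read count + 1) on the vertical axis and the 4 library codes on the horizontal one; dots are libraries in letter order and bars are means of the log2 values. The dots of codes 1 and 2 lie above those of codes 0 and L in every panel, and the first dot of code L stands apart for Mm6, Mm1, Mm193, Mm744 and Mm414.

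Ferritins, the iron stores of plastids, gave 4 contigs from 3 loci. A ferritin 1 contig was at 1868, 1804 and 2531 in code 1 and 875, 519.8 and 1883 in code 2 (Mm4874, AT5G01600), against 72.5 and 102 in code 0 and 184, 53.0 and 129 in code L. The second ferritin 1 contig was at 490.4, 523 and 659 in code 1 and 158, 149 and 477 in code 2 (Mm2470), a ferritin 4 contig at 601, 500.1 and 826 in code 1 and 155, 238 and 671 in code 2 (Mm11195, AT2G40300) and a ferritin 2 contig at 554, 519 and 761 in code 1 and 193, 169 and 569 in code 2 (Mm815, AT3G11050). In all 4, 2-A and 2-B lay below every library of code 1 while 2-C lay within or near their range. Of the 49 kept contigs of the iron list 5 reached the floor, and the 1 that was no member was another ferritin 1 contig (Mm223), which averaged 327 in code 0, 811 in code 1, 1136 in code 2 and 223 in code L. No contig like a nicotianamine synthase, OPT3, a YSL transporter or a ferric reductase reached 100 in all 6 libraries. A contig described as a heavy metal transport and detoxification protein was at 1020.5, 938 and 1242 in code 1 and 786, 1200.5 and 986 in code 2 (Mm86, AT5G24580), and the ranges of codes 1 and 2 overlapped.

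The fixed lists of shikimate and UGT84, of phenylpropanoid and flavonoid, and of superoxide, peroxide and laccase enzymes gave no members. The class III peroxidase and serine carboxypeptidase-like members described below were not on these lists. In the list of the shikimate pathway and the UGT84 glucosyltransferases, which make glucose esters of phenolic acids, 1 of 43 kept contigs reached the floor. It was like MEE32, which makes shikimate, and averaged 228 in code 0, 124 in code 1, 386 in code 2 and 58.8 in code L (Mm37). Of 40 kept contigs of phenylpropanoid and flavonoid enzymes 2 reached it, a COMT1-like methyltransferase (Mm228) and a chalcone isomerase (Mm642). Mm228 was low in code 0 (12.2) and missed the limit in code L (60.3, against 178 and 565 in codes 1 and 2). Among superoxide, peroxide and laccase enzymes 1 of 38 reached it, a CAT1-like catalase that was higher in code 0 (1974) than in codes 1 and 2 (983 and 558; Mm163).

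Oxidoreductases were the largest named role class by description, with 15 of the 94 contigs, against 95 of the 882 at the floor. Class III peroxidases, which are secreted and use hydrogen peroxide to oxidise phenolics, gave a pair. The contig closest to AT4G16270 was at 2656, 4268 and 2741 in code 1 and 8313, 4011 and 3885 in code 2 (Mm1), against 50.8 and 71.4 in code 0 and 63.1, 1.52 and 0.621 in code L. All of code 2 exceeded 1-A and 1-C, 2-A alone exceeded 1-B, and L-A held nearly all of the code L signal. The second, closest to AT4G26010, was at 144, 143 and 308 in code 1 and 537, 236 and 126 in code 2 (Mm276) and at most 4.61 elsewhere. A contig described as an NAD(P)-linked oxidoreductase was at 2951, 2049.8 and 4254 in code 1 and 555, 1026 and 5124 in code 2 (Mm290, AT1G59960), so 2-A and 2-B were low and 2-C high. Cytochromes P450 gave 4 contigs, with 6-library ranges of 539.5 to 1069 and 147 to 292 (Mm219 and Mm607, CYP72A7-like), 233 to 469 (Mm1200, CYP72A15-like) and 151 to 467 (Mm5398, CYP71B34-like). Mm5398 had the largest ratio of the mean of codes 1 and 2 (285) to the higher other mean (1.15, code L), 248. A contig like DMR6, a 2-oxoglutarate oxygenase that acts on salicylate in Arabidopsis, ran from 362 to 607 (Mm111, AT5G24530). Lipoxygenases, which start oxylipin synthesis, gave a pair: the plastid lipoxygenase 2 of the jasmonate route was at 267, 248 and 321 in code 1 and 933, 386 and 264 in code 2 (Mm13, AT3G45140), and lipoxygenase 1 was at 109, 163 and 119 in code 1 and 596, 472 and 117 in code 2 (Mm23, AT1G55020). Both were highest in 2-A. Of the 76 kept contigs of the jasmonate list 3 reached the floor. The other 2, like AOC3 and JAZ1, were no members, with code 0 above the limit at means of 208 (Mm2562) and 132 (Mm5140).

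Secreted and cell wall proteins formed a further group. A thaumatin-like contig of the pathogenesis-related class 5 family, which acts against fungi, was at 691, 589 and 683 in code 1 and 1060.5, 822 and 1046 in code 2 (Mm375, AT1G20030). It was at 1.01 and 0.987 in code 0 and 136, 35.6 and 73.6 in code L, so all of code L exceeded code 0. A beta-1,3-glucanase contig, of enzymes that cut a glucan of fungal walls and callose, was at 518, 370.1 and 822 in code 1 and 595, 857 and 1007 in code 2 (Mm193, AT3G57240), against 0 and 0.164 in code 0 and 9.86, 0 and 0 in code L. A potato type I inhibitor of serine proteases was at 2303, 1688 and 2664 in code 1 and 2197, 1551 and 4798 in code 2 (Mm785, AT2G38870). A lipid-transfer protein contig, of small secreted proteins that bind lipids, was at 1734, 1592 and 2977 in code 1 and 566, 676 and 3162 in code 2 (Mm897, AT4G33355), and was high in code 1 and in 2-C. Serine carboxypeptidase-like proteins, some of which are acyltransferases that use glucose esters, gave a pair at 619.8 to 2373 (Mm3812, AT5G36180) and 340.4 to 1299 (Mm49, AT3G07990).

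Hydroxyproline-rich contigs, whose proteins belong to the cell wall, were at 686, 872 and 752 in code 1 and 1098, 1371 and 364 in code 2 (Mm40, AT5G09520) and at 693, 707 and 654 in code 1 and 2021, 593 and 484 in code 2 (Mm489, AT1G23040). The 3 contigs described as of the plant invertase/pectin methylesterase inhibitor superfamily shared a profile. Mm285 (AT2G45220) was at 409, 857 and 604 in code 1 and 1809.5, 1140.1 and 281 in code 2. Mm11 was at 223, 371 and 283 in code 1 and 2468, 1288 and 235 in code 2. Mm16 was at 352, 595 and 517 in code 1 and 1713, 1121 and 306 in code 2 (both AT1G23200). In each, 2-A and 2-B lay above code 1 and 2-C within or below it. A beta-glucosidase 16 contig ran from 397 to 1077 (Mm31), a family 17 glycosyl hydrolase from 455 to 1012 (Mm81) and a contig like xyloglucan endotransglycosylase 6, which remodels wall xyloglucan, from 161 to 336 (Mm1138). By description, glycoside hydrolases and cell wall proteins made up 7 of the 94 contigs (7.45%) and 14 of the 882 at the floor (1.59%), with 7 of those 14 chosen. RNA and ribosome functions made up 1 of the 94 (1.06%) and 171 of the 882 (19.4%). These shares are descriptions of contigs the rule chose and were not tested.

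Transcription factors gave 11 contigs by description (11.7%, against 4.65% of the 882). The MYB24 contig was at 928, 1085 and 1118 in code 1 and 1767, 1881 and 1202 in code 2 (Mm744, AT5G40350) and the MYB21 contigs at 828, 1019 and 945 in code 1 and 1417, 1552 and 1029 in code 2 (Mm414), 523, 722 and 695 in code 1 and 1065, 1244 and 687 in code 2 (Mm2430) and 377, 463 and 583 in code 1 and 687, 883 and 553 in code 2 (Mm4571, all AT3G27810). These R2R3-MYB factors respond to jasmonate in Arabidopsis stamens. In all 4 contigs, 2-A and 2-B exceeded the 3 libraries of code 1. In code 0 the pair of libraries differed widely: Mm744 was at 124 and 7.47, Mm414 at 101 and 7.51 and Mm2430 at 60.1 and 9.71. A value in 0-A over 5 times that in 0-B was seen for 5 of the 94, these 3 with contigs like ethylene response factor 110 and an RNA-dependent RNA polymerase (Mm387 and Mm2472), and a value in 0-B over 5 times that in 0-A for 4. These are 5.32% and 4.26% of the members, against 1.31% and 2.27% of all contigs tested. Members were chosen to be low in code 0, so all contigs tested are not a background matched for level.

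The other 7 factors varied by 1.18 to 6.52 times among the 6 libraries. A mini zinc finger 2 contig, of small proteins that bind zinc-finger homeodomain factors, was at 530.0, 709 and 594 in code 1 and 536, 486 and 554 in code 2 (Mm547, AT3G28917), and the ethylene response factor contig at 497, 576 and 549 in code 1 and 509, 453 and 509 in code 2 (Mm387, AT5G50080). A contig like MYB4, a repressor of phenylpropanoid genes in Arabidopsis, ran from 149.7 to 177 (Mm3434), the smallest relative range of the 94. NAC contigs ran from 129 to 251 (Mm1326, NAC25-like) and 106 to 313 (Mm2983, NAC83-like), and a WRKY7-like contig from 122 to 224 (Mm899). An HMG-box contig, of proteins that bend DNA, was at 4461, 3192 and 5312 in code 1 and 931, 814 and 2813 in code 2 (Mm959, AT5G23405), low in 2-A and 2-B. In the list of nectary and flower regulators, 15 of 79 kept contigs reached the floor, and the 4 members were the MYB21 and MYB24 contigs. The other 11, like SHP1, SHP2, SEP1, AG, AP1, AP3 and MYB21, missed the limit in code 0, where for example the SEP1-like Mm1125 averaged 329, against 266 in code 1, 324 in code 2 and 1.64 in code L.

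The remaining contigs had mixed descriptions. A glyoxalase I contig, of the enzymes that clear methylglyoxal, was at 856, 969 and 1242 in code 1 and 724, 1454 and 1165 in code 2 (Mm294, AT1G80160), and an S-protein homologue at 596, 954 and 669.7 in code 1 and 1028, 1495 and 234 in code 2 (Mm257). A glyceraldehyde-3-phosphate dehydrogenase contig of glycolysis spread from 100.014 in 2-A to 1438 in 1-C (Mm1300), and an early nodulin-like contig from 194 to 2125 (Mm3759), with 1-B and 2-C low. A pair of actin 7 contigs of the cytoskeleton ran from 202 to 297 (Mm998) and 109 to 186 (Mm1228, both AT5G09810). The ABC transporter contig Mm5808 (AT3G47790) ran from 181 to 490.2, the GDSL lipase contig Mm287 (AT1G53920) from 187 to 590.1 and a carbonic anhydrase 2 contig from 107 to 525 (Mm2176).

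Other enzymes were a UGT76E1-like glucosyltransferase (157 to 451, Mm226), an O-fucosyltransferase (211 to 602, Mm1440), a cellulose-synthase-like C5 contig of xyloglucan backbones (113 to 553, Mm7745) and a calcium-dependent phosphotriesterase (261 to 878, Mm65). Further oxidoreductases were a GMC family contig (118 to 516, Mm378), a 2-oxoglutarate oxygenase (197 to 453, Mm701) and an alternative NAD(P)H dehydrogenase (109 to 346, Mm7015). An NAD(P)-binding Rossmann-fold contig outside that role class ran from 176 to 316 (Mm1375). The copper protein contig uclacyanin 1 ran from 105 to 641 (Mm630). Signalling was represented by a receptor-like kinase-related contig (131 to 718, Mm268), a protein kinase (104 to 204, Mm852), an EF-hand calcium-binding contig (107 to 169.7, Mm2667) and an NDR1/HIN1-like contig (134 to 343, Mm905). Mm268 was high in 2-A and 2-C only, at 718 and 581, against 185, 131 and 206 in code 1 and 145 in 2-B. A flowering-promoting factor-like contig was at 140.3, 280.0 and 148 in code 1 and 347, 303 and 158 in code 2 (Mm2424), a BPS1-like contig at 186 to 806 (Mm839) and a PCC1-like contig at 180.2 to 448 (Mm3828). The glutamine amidotransferase-like Mm306 ran from 129.8 to 329, the HAD hydrolase Mm1495 from 108 to 168, and the hypothetical proteins from 241 to 373 (Mm36897), 177 to 398 (Mm2907) and 101 to 187 (Mm656). The unannotated Mm15739 was at 1497, 2011 and 1943 in code 1 and 380.0, 1149.7 and 768 in code 2, lowest in 2-A.

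The lists of cell division (16 kept contigs), polyamine synthesis (31) and senescence (21) held no member. The first had no contig at the floor, the second 2 and the third 3, among them the SAG21-like Mm22, at a mean of 200.5 in code 0, 4178 and 5483 in codes 1 and 2 and 853 in code L.

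A contig is not a gene, and for many of the 79 loci other contigs behaved otherwise. When all contigs of a locus were summed, 46 of the 79 loci still met the rule and 33 did not. Of the 33, the sum was above the limit in code 0 alone for 10, in code L alone for 9 and in both for 14. Members held a median of 90.1% of their locus's signal in codes 1 and 2 but under 50% in 12 loci. Contig lengths enter these sums if the values are not scaled for length, and reads shared by similar contigs may be divided among them.

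The SWEET9 locus kept its pattern as a sum of 9 contigs, with means of 1.97 in code 0, 3150.3 in codes 1 and 2 and 12.9 in code L. So did the MYB21 locus, at 398, 3295 and 16.8 over 15 contigs, and the peroxidase locus AT4G16270, at 61.5, 4340.1 and 21.9 over 3. Several loci with members described above did not meet the rule as sums. All 3 ferritin loci were among them. Ferritin 1 summed to 449.7, 3296 and 394 in the same order, ferritin 4 to 156, 607 and 284, and ferritin 2 to 31.4, 481 and 69.9. AT1G66200 was at 682, 4451 and 700.4, and glutamate decarboxylase at 317, 536 and 266. The thaumatin-like and glucanase loci were above the limit in code L alone, at 489 and 275 there against 1477 and 832 in codes 1 and 2. In other loci the member was a small share. The sucrose synthase 1 member held 7.98% of its locus's signal, the actin 7 pair 9.06% and the AHA2 member 18.5%. The sum for AHA2 was 984 in code 0, 1659.6 in codes 1 and 2 and 346 in code L. In 2 loci the sum was higher outside codes 1 and 2. The lipoxygenase 2 locus summed to 1381 in code 0 and 649 in codes 1 and 2, through contigs such as Mm2881, and sigma factor binding protein 1 to 341 in code L and 196 in codes 1 and 2. For these loci the rule describes a contig and not the locus.

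**Figure D3:**
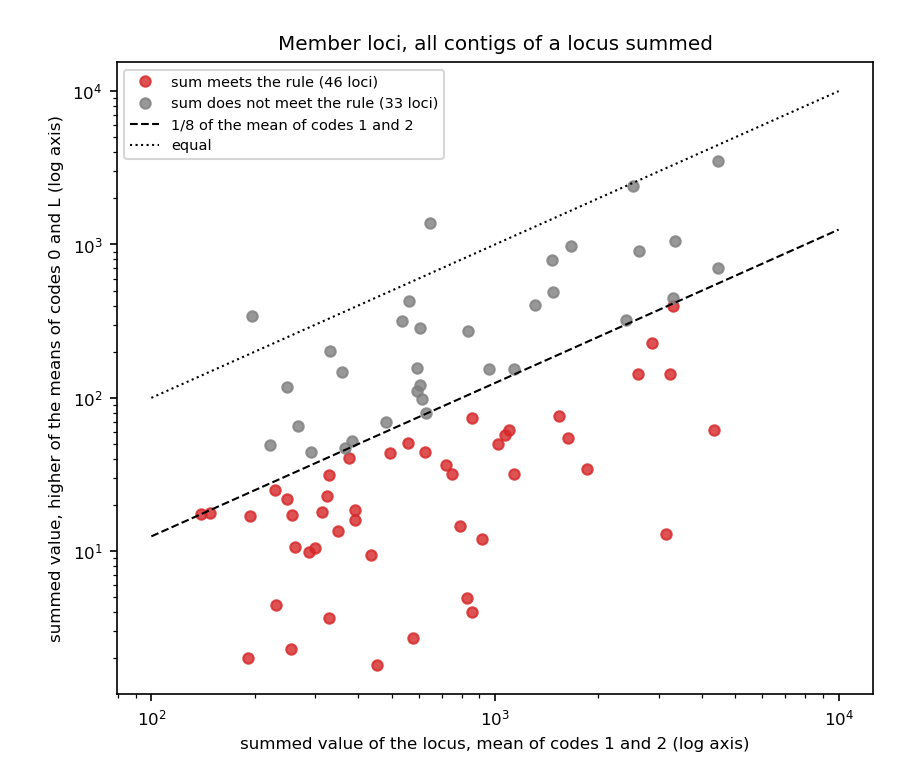
Each dot is 1 of the 79 loci, with the value summed over all its contigs as the mean of codes 1 and 2 (horizontal, log axis) and as the higher of the means of codes 0 and L (vertical, log axis). Red dots (46) meet the rule as sums and grey dots (33) do not, and 2 grey dots lie above the dotted line of equal values.

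The comparison of code 2 with code 1 asks whether these contigs differ between the groups in which they are high. The rule does not use this difference, though its floor keeps out contigs that are low in either group. Calls needed a log2 difference of at least 1 and an adjusted p under 0.05, and 1 member passed. Mm55672, which has no locus, was at 1391, 1069.7 and 1582 in code 1 and 319.7, 336 and 338 in code 2. Its groups did not overlap, and it fell by 2.00 on the log2(value + 1) scale (SE 0.32; limma, adjusted p = 0.0204). This call was lost without 1-A (-1.97), without 1-C (-1.88) and without 2-A (-1.98). None of the 94 was called higher in code 2 by limma. At an unadjusted p under 0.05, 3 of the 94 were higher and 8 lower, together 11.7%, against 12.7% of the 26053 contigs tested. Over all contigs tested limma called 0.184% higher and 0.983% lower in code 2 (48 and 256), so the members' 1 call of 94 (1.06%) was near the background.

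The median log2 difference of the 94 was 0.0616, against -0.0206 over all contigs tested, with 49 of the 94 positive. The differences ran from -2.03 for the glyceraldehyde-3-phosphate dehydrogenase contig (Mm1300) to 1.80 for the nitrate transporter contig (Mm24), and 77 of the 94 lay within 1 of 0. The median SE was 0.519, so differences of this size were not resolved. Among annotated contigs the lowest p of those higher in code 2 belonged to the AHA2-like Mm8 (1.67, SE 0.44; limma, adjusted p = 0.127), Mm24 (SE 0.60; limma, adjusted p = 0.23) and the lipoxygenase 1 contig Mm23 (1.32, SE 0.56; limma, adjusted p = 0.359). Of those lower in code 2 it belonged to the HMG-box contig Mm959 (-1.72, SE 0.47; limma, adjusted p = 0.149), the ferritin 1 contig Mm2470 (-1.30, SE 0.41; limma, adjusted p = 0.207) and the methyltransferase contig Mm3173 (-1.39, SE 0.45; limma, adjusted p = 0.213). Without 2-C, 10 members were called, 2 higher and 8 lower, among them Mm8 (2.29), Mm23 (2.04), Mm959 (-2.28) and Mm2470 (-1.84). Without 1-A no contig of the table was called by limma (2239 at an unadjusted p under 0.05), and without 2-C 1483 were.

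Calls in the fixed lists stand beside shares over all contigs tested of 0.184% higher and 0.983% lower in code 2. None of the 81 sugar, 33 starch breakdown, 76 jasmonate, 79 regulator or 49 iron contigs was called by limma in either direction. Of 43 shikimate and UGT84 contigs 1 was higher in code 2, and of 31 polyamine synthesis contigs 7 were higher. Of 113 pump, aquaporin and SNARE contigs 2 were lower, and of 16 cell division contigs 2. The polyamine and cell division calls were larger shares than over all contigs, which was not tested, and neither list held a member. The lists of phenylpropanoid enzymes, superoxide and laccase enzymes, defence proteins and senescence had no call by limma. Among the marker lists, 1 of 5 pollen and tapetum contigs and 1 of 10 epidermis and stomata contigs were lower. Those of leaf photosynthesis and vascular tissue had no call by limma.

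**Figure D4:**
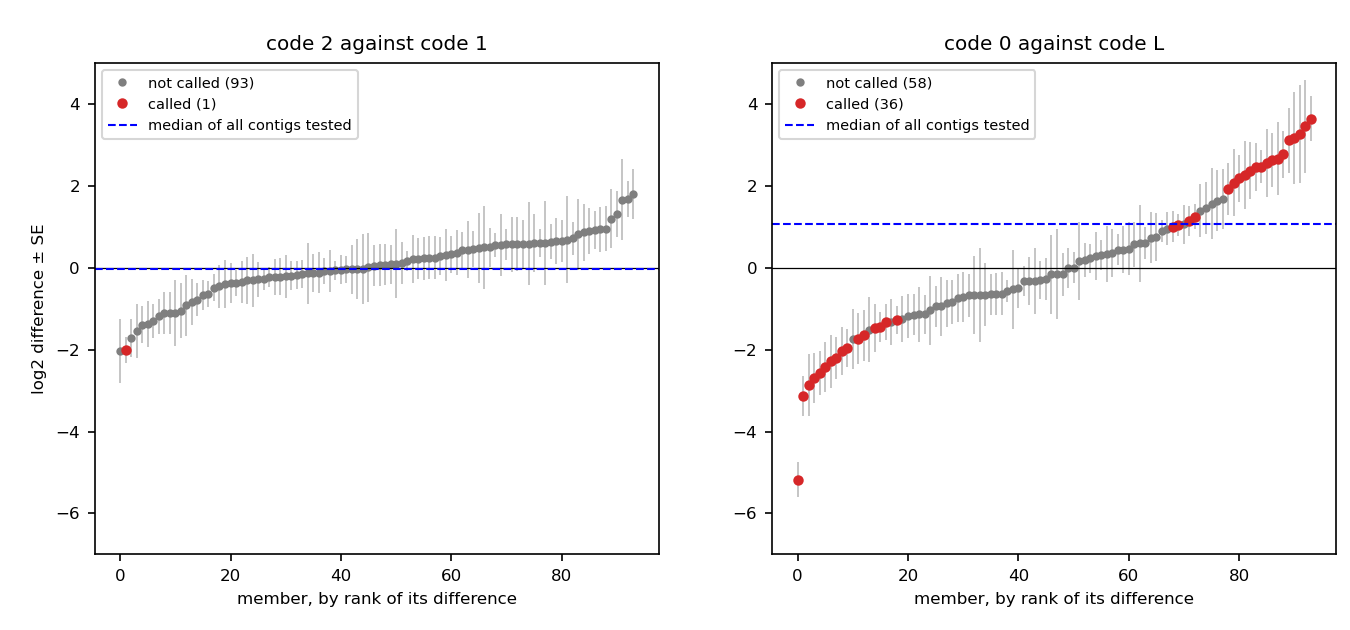
Log2 differences of the 94 contigs (dots, with bars for SE), ordered by size, for code 2 against code 1 on the left and code 0 against code L on the right; red dots are called and the dashed line is the median of all 26053 contigs tested. On the left 1 dot is red and the members centre on the dashed line. On the right 36 are red and the members' median of -0.16 lies under the dashed line at 1.08. The rule holds members low in codes 0 and L, which it does not do for all contigs tested.

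The libraries of code 2 differed from each other more than those of code 1 in most of these contigs. The coefficient of variation had a median of 19.3% in code 1 and 47.2% in code 2, against 14.9% and 24.4% over the 882 contigs at the floor, and it was larger in code 2 for 81 of the 94. Library 2-C was below both 2-A and 2-B for 44 contigs, above both for 28 and between them for 22. These are 46.8%, 29.8% and 23.4% of the members, against 57.0%, 22.8% and 20.2% of the 882. The median log2 difference from code 1 was 0.34 in 2-A, -0.0736 in 2-B and -0.0993 in 2-C. The highest of the 6 libraries was 2-A for 41 of the 94 and 1-C for 25, and the lowest was 2-C for 27 and 2-B for 22.

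Named groups fell on different sides of this order. The 3 contigs of the invertase/pectin methylesterase inhibitor superfamily, the MYB21 and MYB24 contigs and the 4 contigs of AT1G66200 were below 2-A and 2-B in 2-C. So were both peroxidases and both lipoxygenases. The 4 ferritin contigs, the protease inhibitor, the lipid-transfer protein, both serine carboxypeptidase-like contigs and the glucanase were above both in 2-C. For Mm4874, for example, 2-A and 2-B were at 875 and 519.8 and 2-C at 1883, against 1868, 1804 and 2531 in code 1. For the pectin-related Mm11, 2-A and 2-B were at 2468 and 1288 and 2-C at 235, against 223, 371 and 283. Means of code 2 therefore blend unlike libraries for these contigs. The sorting was made after the values were seen and was not tested.

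**Figure D5:**
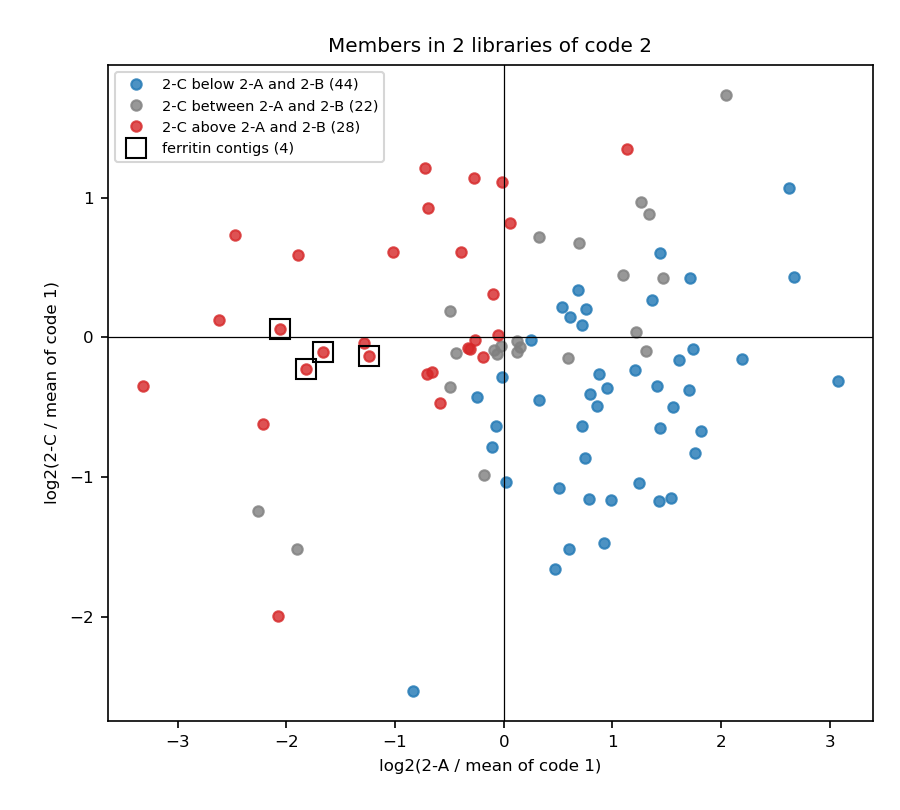
Each dot is 1 of the 94 contigs, with the log2 ratio of 2-A to the mean of code 1 on the horizontal axis and that of 2-C on the vertical axis; colours give whether 2-C lies below (44), between (22) or above (28) 2-A and 2-B. The 4 ferritin contigs, boxed, lie to the left near 0 on the vertical axis: low in 2-A and close to code 1 in 2-C.

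Codes 0 and L were compared over the low side of the rule, which caps both but does not say which is higher. Of the 94 contigs 20 were called higher and 16 lower in code 0 (21.3% and 17.0%), and over all contigs tested limma called 49.4% higher and 13.3% lower. The rule holds members low in both codes, so all contigs tested are not a matched background for the shares and medians of this comparison. Every member passed the filter for testing through the libraries in which the rule makes it high. Low values in codes 0 and L thus kept no member out, and library medians of the members there were 3.22 (L-B) to 12.6 (L-A). The calls and p-values of this comparison, here and below, are therefore a description of chosen contigs at low values. The median log2 difference was -0.16 in the members and 1.08 over all contigs, a shift of the whole table between codes whose column totals also differ. After median ratio scaling, which moved that table median to 0.0757, 3 members were called higher and 36 lower in code 0, against 17.1% and 21.7% of all contigs. At equal totals it was 10 and 23 (10.6% and 24.5%), against 35.7% and 16.2% of all contigs. The direction of the balance among members therefore depends on the scaling. With their means as deposited, 40 of the 94 were higher in code 0 and 52 in code L.

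The annotated members furthest above code L in code 0 were the metal-related contig Mm86, at 59.3 and 47.4 against at most 10.983 (log2 difference 3.64, SE 0.56; limma, adjusted p = 2.83e-04), and the MYB24 contig Mm744 (3.45, SE 1.14; limma, adjusted p = 0.0198). The peroxidase Mm1 (3.26; limma, adjusted p = 0.0311), the MYB21 contigs Mm414 (3.16; limma, adjusted p = 0.0276) and Mm2430 (3.11; limma, adjusted p = 0.00521) and the ABC transporter Mm5808 (2.77; limma, adjusted p = 0.00165) followed. The call of Mm86 held in each of the 21 alternatives run. Single libraries decided most of the others. Without 0-A the calls of Mm744 (1.51), Mm414 (1.37), Mm2430 (1.86) and Mm1 (3.50) were lost. Those of Mm744, Mm414 and Mm1 were also lost without L-B (2.97, 2.69 and 2.59) and without L-C (2.74, 2.40 and 2.27), and that of Mm1 without 0-B (3.02). Without L-A their differences rose to 5.39, 4.96 and 4.92. After median ratio scaling these 3 and Mm2430 were not called (2.72, 2.40, 2.34 and 2.29). The calls of Mm744, Mm414 and Mm1 were also lost at equal totals (3.17, 2.86 and 2.90), with library weights (2.65, 2.33 and 2.14) and with only codes 0 and L in the fit (3.45, 3.16 and 3.26). With a pseudocount of 10 those of Mm1 (1.76) and Mm5808 (0.86) were lost.

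The members furthest below code L in code 0 were the thaumatin-like contig Mm375, at 1.01 and 0.987 against 136, 35.6 and 73.6 (log2 difference -5.17, SE 0.43; limma, adjusted p = 8.28e-06), and the glutamate decarboxylase contig Mm1204 (-3.13, SE 0.49; limma, adjusted p = 3.08e-04). The oxidoreductase contig Mm290 (-2.87; limma, adjusted p = 0.00635), the second glutamate decarboxylase contig Mm805 (-2.69; limma, adjusted p = 0.00298), the DMR6-like Mm111 (-2.57; limma, adjusted p = 0.00159) and the lipase Mm287 (-2.43; limma, adjusted p = 0.00501) followed. Of these 6, the removal of a single library ended 1 call, that of Mm290 without 0-A (-2.60), and a pseudocount of 10 ended those of Mm805 (-0.80) and Mm287 (-0.89). With filed labels, which put the high library 1-A beside 0-A and 0-B, all 6 lower calls were lost (-2.36 for Mm375, -0.89 for Mm1204, -0.46 for Mm290, -0.30 for Mm805, -0.24 for Mm111 and -0.0223 for Mm287), and 25 members (26.6%) were called higher and none lower, against 49.0% and 11.8% of all contigs.

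Listed values of these contigs were often higher in library L-A than in the other libraries of its code. L-A was the highest of code L for 71 of the 94, a count without a share over all contigs. It was over 5 times both L-B and L-C for 27 (28.7%), against 1.82% of all contigs tested. The rule holds members low in code L and does not hold all contigs tested so, and these shares are not like for like. For the SWEET9-like Mm6 the values were 36.8, 0.806 and 0.105, for the peroxidase Mm1 63.1, 1.52 and 0.621 and for the lipid-transfer contig Mm897 6.07, 0.239 and 0.187. When L-A was left out of the rule, 96 contigs were chosen, among them all 94.

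The rule was also applied without each library in turn, and the contigs then chosen were looked up in the library left out. They met the condition there in 87.8% to 98.9% of cases. The lowest shares were 86 of 98 for L-C, 89 of 101 for 2-A, 86 of 96 for L-A and 93 of 103 for 2-C, and the highest was 91 of 92 for 1-C. Without 2-A, 14 contigs were chosen that are not members, down to a value of 18.0 in 2-A, and without 2-C 11, down to 2.25 in 2-C.

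The number of contigs depended on the scaling of the libraries. With each library scaled to the same total 72 contigs met the rule, and after median ratio scaling 58, all among the 94. A floor of 200 left 46 and a floor of 50 gave 159, and with every single library of codes 0 and L held under the limit 77 remained.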

How the data were processed

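RNA of 11 leaf and nectary libraries was sequenced in paired-end runs, per the labels' protocols, and kallisto 0.46.1 is named in the submitters' processing notes. The deposited values are a signal that the authors call normalised read counts in the file headers, 1 column per library. Their scaling and the assembly of contigs are not given in the sources used here. They are not whole, so no count model was used and no interval that needs depth is given. A 0 in the table can be a failed estimate.

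Groups follow the library code in each sample's description. Contigs reaching 10 in 2 or more libraries (26053, all 94 members among them) entered the tests on log2(value + 1), made by limma 3.58.1 under R 4.3.3. The model held a mean for each code, used all 11 libraries and moderated variances with a trend; the code was tested on simulated data. P-values are two-sided and Benjamini-Hochberg adjusted over all contigs kept, and calls needed an adjusted p under 0.05 and an absolute difference of at least 1. Log2 differences on this scale understate the change of low contigs.

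Members, lists and tests were chosen with earlier results of these data known. Named members followed a rule: the 15 annotated members with the highest mean, up to 3 per fixed list and 2 per role class, the leading ones of each test, the 5 with the largest ratio, and those of the 3 loci with most members. Others were named to complete a group after their values were seen. Role classes were read from the descriptions by keyword. Same-lettered libraries were not treated as pairs. Alternatives were other pseudocounts, filters, scalings, library weights, smaller fits, filed labels and each library left out. Figures used matplotlib 3.10.9.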

Additional observations from a re-analysis of the deposited data

How the results depend on the processing

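The 94 members became 159 with a floor of 50, 46 with a floor of 200, 145 with a limit of 1/4, 58 after median ratio scaling and 57 loci when summed by locus, and 88 to 103 with a library left out. For code 2 against code 1, the 1 member called became 0 with a pseudocount of 0.1, after median ratio scaling, with only the pair of groups in the fit or with filed labels, 14 with library weights (3 higher, 11 lower) and 0 to 10 with a library left out. Over all contigs the 304 calls became 113 with a pseudocount of 0.1, 538 with no filter, 93 with a filter of 50, 194 after median ratio scaling, 1915 with library weights, 1 with only the pair of groups, 0 with filed labels (limma; 1263 at an unadjusted p under 0.05) and 0 to 1483 with a library left out. The median member difference ran from -0.11 to 0.22 with a library left out. For code 0 against code L, the 36 members called became 17 with a pseudocount of 10 and 18 to 41 with a library left out. The 16353 contigs called became 8757 with a pseudocount of 10, 29206 with no filter, 4903 with a filter of 50 and 10112 after median ratio scaling, with 13407 to 16844 when a library was left out. The causes were not tested, except that filters and removals change how many contigs or libraries are tested. For 19 contigs, picked for being called or for the lowest p in the main fit, no difference changed its sign in any of the alternatives run. That choice favours a stable sign, and the signs of the other members were not followed. In a fit with the library letter as a replicate block, 1 member and 249 contigs were called for code 2 against code 1, and 39 and 16707 for code 0 against code L. Same-lettered libraries of codes 1 and 2 deviated together with r of -0.13, 0.21 and 0.21, so the letters were not taken as pairs. Depth is unknown, and the 2 or 3 libraries per code limit the precision of every value here.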
